A study of Mus musculus with 16 samples.

Results

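The genes described here encode enzymes of glycolysis, the cytosolic route from glucose to pyruvate and lactate: Hk1, Hk2, Pfkl, Aldoa, Tpi1, Pgk1, Pgam1, Pkm and Ldha. They were chosen by symbol, as every probe set of the deposited table, control probe sets left out, whose single gene in the platform annotation was one of 10 listed enzymes. This gave 12 probe sets of 9 genes, of 12422 probe sets and 8251 genes in all, and Eno1 (enolase) was not analysed here. Hk2, Aldoa and Pkm had 2 probe sets each, and the brighter one on average over all arrays stood for the gene in counts and medians.

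The 16 Affymetrix arrays measured total RNA of immature CD4+CD8+ T cells, the double-positive stage, that had developed in explanted fetal thymus kept as an organ culture. The BDC2.5/B6g7 groups came from mice with the BDC2.5 transgene, a T cell receptor of a diabetogenic CD4 T cell clone, on the B6g7 background, which carries the MHC of NOD mice on C57BL/6. They held 3 arrays without peptide and 3 with peptide for 16 h. The BDC2.5/NOD groups carried the same transgene on the NOD background, a strain prone to autoimmune diabetes, and likewise held 3 arrays without peptide and 3 at 16 h. Wild-type B6g7 and wild-type NOD, without the transgene, had 2 arrays each. The labels name neither the peptide, its dose, the age of the animals nor the promoter of the transgene, and do not say whether wild-type cultures had peptide. They do not say that replicates came from separate animals, so the p-values measure the spread between these samples, which may be technical.

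Glycolysis splits a glucose molecule in a chain of enzyme steps that yields a small amount of ATP without oxygen, and lactate dehydrogenase then turns pyruvate into lactate. T cells raise it when their antigen receptor is triggered and they start to grow, under control of factors such as Myc and Hif1a. Resting double-positive thymocytes are small cells that divide little and later die or are selected by the strength of their receptor signal.

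Of 16 listed double-positive thymocyte markers 12 were measured, and all 12 had a mean above the array medians, which lay between 54.7 and 59.1. That also held for 6 of 8 measured B cell markers, 4 of 9 of thymic epithelium and 5 of 12 of mesenchyme and endothelium. Of myeloid and dendritic markers it held for 3 of 13, of NK and innate lymphocyte markers for 3 of 7 and of erythroid markers for 1 of 7. Cd8a lay between 1074 and 5146, Rag1 between 543 and 4745 and Dntt between 864 and 4624. In each group the array with the last number (3 in BDC2.5, 2 in wild-type) stood apart, 6 arrays in all against the other 10. For Gapdh, itself a glycolytic enzyme whose control probe sets were in no test, their difference between 3' and 5' signal was 1.52 to 2.32 on the log2 scale, against 2.15 to 2.97 in the other 10 arrays. In 6 of 6 groups no other array was lower. Beta-actin gave 1.36 to 1.96 against 2.24 to 3.27.

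Some glycolysis genes were higher in these 6 arrays and some lower. Aldoa, Hk2, Pkm and Pfkl varied between groups by the brighter or only probe set. Pgk1, Ldha and Pgam1 were highest in the array that stood apart in 6 of 6 groups, which was also so for 10.1% of all probe sets. Because this pattern set those 3 genes beside each other, their promoters are shown, as the 250 bases before a RefSeq start site (GRCm38.p6). Capitals mark ACGTG, the core that the hypoxia factor Hif1a and its partner bind, or its reverse complement CACGT, and the longer CACGTG, in which the motifs overlap, is the E-box that Myc binds. Each sequence is on the + strand.
Ldha, chr7:46845554-46845803: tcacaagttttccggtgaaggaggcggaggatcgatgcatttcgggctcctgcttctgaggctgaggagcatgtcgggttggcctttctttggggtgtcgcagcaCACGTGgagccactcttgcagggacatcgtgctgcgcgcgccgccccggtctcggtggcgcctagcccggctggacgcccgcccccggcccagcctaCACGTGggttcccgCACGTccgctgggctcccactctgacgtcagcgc
Pgam1, chr19:41911621-41911870: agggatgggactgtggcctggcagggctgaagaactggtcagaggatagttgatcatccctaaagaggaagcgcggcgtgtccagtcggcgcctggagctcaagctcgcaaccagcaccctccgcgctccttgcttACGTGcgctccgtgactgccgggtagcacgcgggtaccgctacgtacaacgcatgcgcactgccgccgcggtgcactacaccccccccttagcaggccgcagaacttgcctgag
Pgk1, chrX:106186850-106187099: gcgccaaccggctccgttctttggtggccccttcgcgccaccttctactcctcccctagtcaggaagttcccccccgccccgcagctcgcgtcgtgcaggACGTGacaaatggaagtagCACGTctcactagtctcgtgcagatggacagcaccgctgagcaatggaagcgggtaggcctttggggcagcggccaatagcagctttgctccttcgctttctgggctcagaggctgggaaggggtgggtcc

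The window of Ldha held CACGTG in 2 places and a CACGT besides, that of Pgam1 held ACGTG in 1 place, and that of Pgk1 held ACGTG once and CACGT once. A further Ldha start site (chr7:46846832-46847081) had neither. On either strand, ACGTG was found in 7 of the 14 start-site windows of the 9 genes and in 16.6% of the 32851 windows in the table. The 7 include 2 overlapping Aldoa windows that share their only match. The longer motif CACGTG was found in 1 of 14, against 6.02%. Hk2, Aldoa and Pkm also had ACGTG in a window, while Hk1, Pfkl and Tpi1 did not. A match says only that these letters are in the window.

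Pgk1, phosphoglycerate kinase, the first enzyme of the path to make ATP, was higher in each array that stands apart. Without peptide its intensity was 1816, 1815 and 3443 in BDC2.5/B6g7 and 1630, 1744 and 2919 in BDC2.5/NOD. At 16 h it was 1574, 1549 and 3014 in BDC2.5/B6g7 and 1933, 1519 and 2926 in BDC2.5/NOD. Wild-type B6g7 gave 2210 and 3520, and wild-type NOD 1909 and 4146. The last value of each group is the array that stands apart, above the mean of the others of its group by 0.67 to 1.12 on the log2 scale.

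Ldha, the muscle-type lactate dehydrogenase subunit, followed the same arrays. It read 1577, 1728 and 2161 in BDC2.5/B6g7 without peptide and 1463, 1780 and 3240 at 16 h. In BDC2.5/NOD it read 1538, 1421 and 2197 without peptide and 1787, 1384 and 2942 at 16 h. Wild-type B6g7 gave 1699 and 2262, and wild-type NOD 1251 and 2724. The departure of the arrays that stand apart was 0.39 to 1.12, larger than any difference between the means of the 6 groups, which spanned 0.27.

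Pgam1, the phosphoglycerate mutase, read 405, 447 and 540 in BDC2.5/B6g7 without peptide, 478, 390 and 792 at 16 h, and 427 and 479 in wild-type B6g7. In BDC2.5/NOD it read 230, 395 and 512 without peptide and 422, 307 and 639 at 16 h, with 435 and 581 in wild-type NOD. Besides the high arrays that stand apart, the BDC2.5/NOD array numbered 1 without peptide was the lowest of all 16.

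Tpi1 and Hk1 went the other way in most groups. Tpi1, triosephosphate isomerase, which interconverts the triose phosphates, read 913, 407 and 376 in BDC2.5/B6g7 without peptide, 653, 669 and 334 in BDC2.5/NOD without peptide and 726, 551 and 305 in BDC2.5/NOD at 16 h. Wild-type B6g7 gave 927 and 457, and wild-type NOD 1054 and 519. The array that stands apart was the lowest in these 5 groups, 0.70 to 1.05 below the mean of the others on the log2 scale, though in BDC2.5/B6g7 without peptide it lay close to the next array. In BDC2.5/B6g7 at 16 h the order differed, with 840, 619 and 1003, the array that stands apart being the highest.

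Hk1, the hexokinase found in most tissues, was lowest in the array that stands apart in 5 of 6 groups. It read 572, 420 and 368 in BDC2.5/B6g7 without peptide and 613, 580 and 589 at 16 h, 420, 532 and 357 in BDC2.5/NOD without peptide and 559, 583 and 441 at 16 h. Wild-type B6g7 gave 534 and 236, and wild-type NOD 500 and 301. The dimmer Aldoa and Pkm probe sets were also lowest there in 5 of 6 groups, while their brighter ones were so in 3 and 1. No member probe set was lowest in all 6 groups, which 10.6% of all probe sets were. The share of all probe sets that were lowest in 5 groups was not computed. Whether the lower 3' to 5' ratio of these arrays has a part in the levels of Pgk1, Ldha, Pgam1, Tpi1 or Hk1 was not tested.

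**Figure D1:**
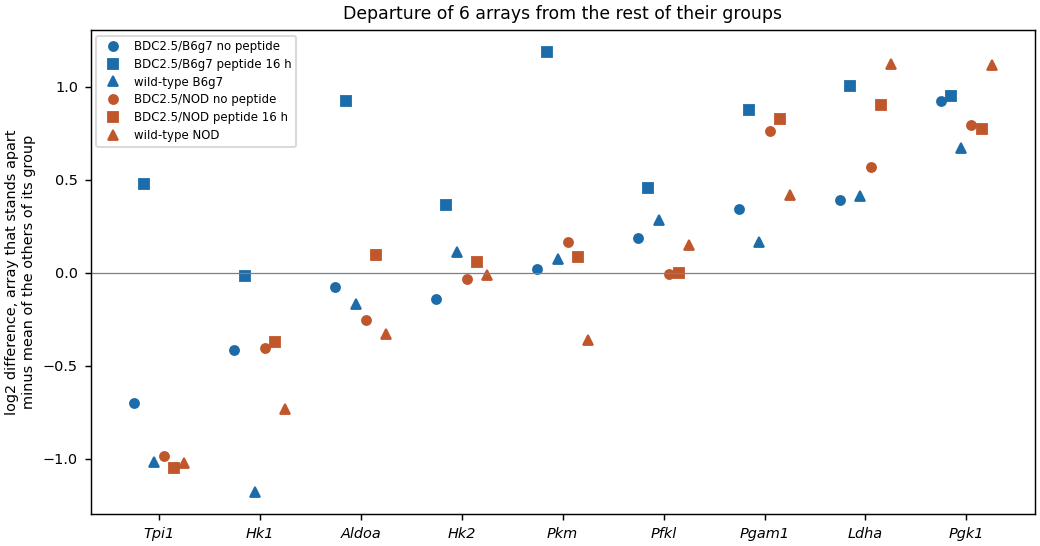
Log2 difference between the array that stands apart and the mean of the other arrays of its group (y axis), for the brighter or only probe set of 9 glycolysis genes (x axis, ordered by the median over groups), with 1 point per group. Pgk1, Ldha and Pgam1 lie above 0 in all 6 groups, and Tpi1 lies at -0.70 or below in 5 groups but at 0.48 in BDC2.5/B6g7 at 16 h.

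The peptide comparison asked whether 16 h of peptide changed these genes in BDC2.5 thymocytes. On the B6g7 background limma called 0 of the 12 probe sets at an adjusted p under 0.05, against 0.00805% of all probe sets, and 1 of the 12 had an unadjusted p under 0.05, as 3.40% of all probe sets did. Of the 9 genes, 8 were higher and 1 lower with peptide, with a median log2 difference of 0.32, where over all probe sets 48.0% were higher and the median was -0.01. All 12 had adjusted p = 1. That median rested on 1 array: without the peptide array numbered 3, 6 of 9 genes were higher and the median was 0.10, and without all 6 arrays that stand apart 7 were higher, with a median of 0.11.

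The peptide array numbered 3 in B6g7 was the highest of all 16 for Aldoa, Hk2, Pfkl, Pgam1, Pkm and Ldha. Aldoa, the aldolase that splits the phosphorylated hexose, read 696, 528 and 576 without peptide and 760, 624 and 1305 at 16 h. Its difference was 0.51 ± 0.25 (SE, 95% interval -0.02 to 1.04), higher in 3 of 3 same-numbered pairs, and 0.21 without the peptide array numbered 3. Its dimmer probe set gave 0.44 ± 0.21, from 342, 305 and 225 to 411, 327 and 434. Without the 6 arrays that stand apart both gave 0.18.

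Pkm, pyruvate kinase, which makes pyruvate and ATP, read 335, 278 and 309 without peptide and 361, 299 and 748 at 16 h (0.50 ± 0.28, 95% interval -0.10 to 1.09), and without the peptide array numbered 3 the difference was 0.10. The groups overlapped, and the dimmer probe set, with 251, 201 and 201 against 288, 220 and 249, gave 0.21 ± 0.19. The peptide array numbered 3 was thus far above the others by the brighter Pkm probe set and between them by the dimmer. The suffixes of these Pkm and Aldoa probe sets mark that their probes may bind related transcripts.

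Among the hexokinases, which trap glucose in the cell by phosphorylation, both genes had a probe set whose peptide arrays in B6g7 all lay above those without peptide, as 3.48% of all probe sets did, and 0 of 12 lay below throughout, against 3.03%. For Hk1 the difference was 0.41 ± 0.30 (95% interval -0.22 to 1.05). Hk2, the inducible hexokinase, read 24.9, 24.1 and 22.2 without peptide and 29.2, 25.5 and 35.1 at 16 h (0.32 ± 0.10, 95% interval 0.11 to 0.54, unadjusted p = 0.00674, limma adjusted p = 1). All its values lie below the array medians, the deposited table has no detection values, and its dimmer probe set, between 11.9 and 14.6 on all arrays, gave -0.06 ± 0.06. Without the peptide array numbered 3 the brighter gave 0.20. With the replicate number as a block Hk2 had adjusted p = 0.428.

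The remaining steps showed wide intervals. Tpi1 had the largest difference, 0.63 ± 0.45 (95% interval -0.33 to 1.60), higher in 2 of 3 pairs, and gave 1.04 without the no-peptide array numbered 1 and 0.40 without that numbered 3. Pfkl, the liver-type subunit of phosphofructokinase at the committed step, read 105, 91.9 and 112 without peptide and 113, 99.2 and 145 at 16 h (0.20 ± 0.15), and 0.05 without the last of these arrays. Pgam1 gave 0.20 ± 0.34, Ldha 0.17 ± 0.37 and Pgk1, the 1 gene lower with peptide, -0.21 ± 0.40, lower in 3 of 3 pairs. Without the peptide array numbered 3 Pgam1 gave -0.09 and Ldha -0.16, and without the no-peptide array numbered 3 Pgk1 gave 0.10. These 3 genes were raised in both arrays numbered 3, so leaving out 1 of them shifts the difference. With all 6 arrays that stand apart left out, Tpi1 gave 0.24, Pfkl 0.11, Pgam1 0.02, Ldha -0.03 and Pgk1 -0.22. For Ldha the 95% interval ran from -0.62 to 0.96, and a change within it was not resolved by these arrays.

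Beside these values, the summed intensity of 13 myeloid and dendritic cell markers in B6g7 was 737 to 889 without peptide and 953 to 986 at 16 h. In NOD the groups overlapped, with 911 to 1231 without peptide and 966 to 1133 at 16 h. Only 3 of the 13 had a mean above the array medians, and no value in the table was 0. The sum over 12 double-positive markers in B6g7 was 13812 to 16159 without peptide and 9774.5 to 14098 at 16 h. In NOD it was 13379.7 to 18414.5 without peptide and 12637.8 to 14018.5 at 16 h. The sum over 7 NK and innate lymphocyte markers in NOD was 515 to 561 without peptide and 619 to 724 at 16 h. In B6g7 it overlapped, with 549 to 756 and then 570 to 872. The sums of the B cell, thymic epithelium, mesenchyme and endothelium, and erythroid lists overlapped in both strains. The part of any of these in the glycolysis values was not tested.

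On the NOD background, too, no member passed. limma called 0 of 12 probe sets, against 0% of all probe sets, and 0 had an unadjusted p under 0.05, against 1.67%. Again 8 of 9 genes were higher, against 42.0% of all probe sets, with a median of 0.16 where all probe sets had -0.02. The median was 0.03 without the no-peptide array numbered 1 and 0.05 without the peptide array numbered 3. Without the 6 arrays that stand apart it was 0.09, with 8 genes higher.

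Hk1 gave the largest difference in NOD, 0.28 ± 0.30, higher in 3 of 3 pairs, with overlapping groups. Pgam1 gave 0.28 ± 0.34, Aldoa 0.21 ± 0.25, Ldha 0.20 ± 0.37 and Pkm 0.16 ± 0.28. Without the no-peptide array numbered 1 Pgam1 gave -0.05 and Pkm 0.01, and without the peptide array numbered 3 Ldha gave -0.10. Without the no-peptide array numbered 3 Hk1 gave 0.15 and Aldoa 0.13. With all 6 arrays that stand apart left out, Ldha gave 0.09, Hk1 0.27 and Aldoa 0.10. Aldoa read 567, 703 and 529 without peptide and 710, 641 and 721 at 16 h, and Pkm 216, 301 and 287 and then 303, 277 and 307. In neither gene did an array at 16 h leave the rest as in B6g7. Pfkl gave 0.05 ± 0.15, Hk2 0.04 ± 0.10, Pgk1 0.02 ± 0.40 and Tpi1, the 1 gene lower, -0.09 ± 0.45, and the groups of every member overlapped, where 2.33% of all probe sets lay above throughout and 3.2% below.

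Averaged over both strains, 8 of 9 genes were higher with peptide (median 0.24, against -0.02 over all probe sets), and limma called 0 of 12 against 0.0242%, with 1 at an unadjusted p under 0.05, against 3.58%. Aldoa gave the largest mean difference, 0.36 ± 0.17 (95% interval -0.01 to 0.74), and its dimmer probe set 0.30 ± 0.15. Hk2 gave 0.18 ± 0.07 (unadjusted p = 0.0247). Without the B6g7 peptide array numbered 3 Aldoa gave 0.21 and Hk2 0.12. All 12 had limma adjusted p = 0.998. The median was 0.12 without the B6g7 peptide array numbered 3 and 0.09 without the 6 arrays that stand apart.

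**Figure D2:**
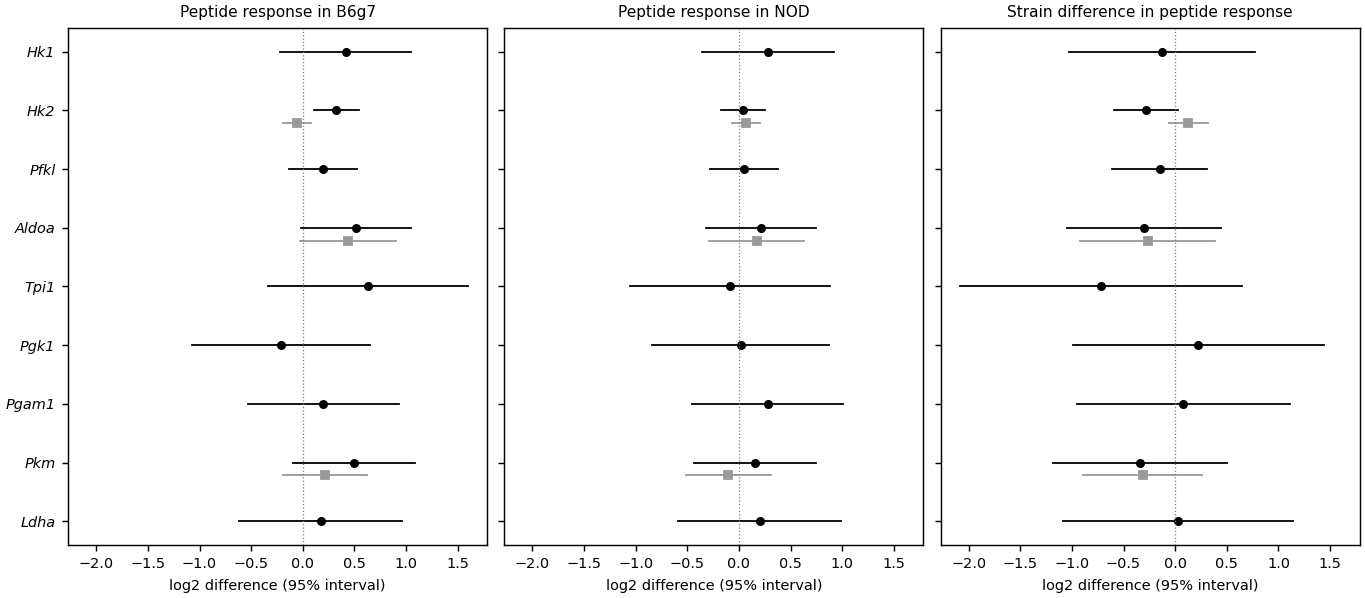
Log2 difference with its 95% interval from limma (x axis) for each glycolysis gene (y axis) in the peptide response of B6g7, that of NOD and NOD minus B6g7. Black circles are brighter or only probe sets and grey squares dimmer ones. All intervals include 0 except that of the brighter Hk2 probe set in B6g7, whose adjusted p was 1.

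Whether the response differed between strains was tested directly, as NOD minus B6g7. limma called 0 of 12 probe sets, against 0% of all probe sets, and 0 had an unadjusted p under 0.05, against 1.18%. Of 9 genes, 6 were lower and 3 higher in NOD (median -0.15), where 43.7% of all probe sets were higher and their median was -0.03. Tpi1 gave -0.72 ± 0.64 (95% interval -2.09 to 0.65), Pkm -0.34 ± 0.39, Aldoa -0.30 ± 0.35 and Hk2 -0.28 ± 0.14, each at adjusted p = 1. Without the B6g7 peptide array numbered 3 Pkm gave 0.05, Aldoa 0.01 and Hk2 -0.16, and without the NOD peptide array numbered 3 Tpi1 gave -0.37. In the first of these the median was 0.01, and without the NOD peptide array numbered 3 all 9 genes were lower, with a median of -0.27. Each of these leaves out an array that stands apart from 1 group only. With all 6 such arrays left out, 5 genes were lower and 4 higher, with a median of -0.01, against -0.03 over all probe sets.

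Without peptide no member was called between the strains. limma called 0 of 12 probe sets for NOD minus B6g7, against 0.266% of all probe sets, with 0 at an unadjusted p under 0.05 (3.45% of all probe sets), and the groups of every member overlapped, where 3.24% of all probe sets lay above throughout and 2.37% below. The median was -0.05, 2 genes being higher and 7 lower in NOD, where all probe sets had 0.03. It was 0.01 without the B6g7 array numbered 1 and -0.13 without that numbered 2. Pgam1 gave the largest difference, -0.36 ± 0.34, lower in 3 of 3 pairs, but gave -0.03 without the NOD array numbered 1. Aldoa, Pfkl, Tpi1, Hk1 and Hk2 each differed by less than 0.07, though the interval for Tpi1 ran from -0.95 to 0.99.

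At 16 h, 8 of 9 genes were lower in NOD (median -0.22, against 0.01 over all probe sets). limma called 0 of 12, against 0.491% of all probe sets, and 2 had an unadjusted p under 0.05, as 5.68% of all probe sets did. Those were the Hk2 probe sets, which went opposite ways: -0.22 ± 0.10 by the brighter (adjusted p = 0.841) and 0.16 ± 0.06 by the dimmer (adjusted p = 0.743). The latter was also the 1 of 12 whose NOD arrays all lay above those of B6g7, as 6.45% of all probe sets did, and 0 of 12 lay below throughout, against 5.39%. Tpi1 gave -0.70 ± 0.45 and Pkm -0.55 ± 0.28, both lower in 3 of 3 pairs. Pkm gave -0.15 without the B6g7 peptide array numbered 3, the brighter Hk2 probe set then -0.10, and Tpi1 -0.35 without the NOD peptide array numbered 3. Without the B6g7 peptide array numbered 3, 5 of 9 were lower and the median was -0.0026. Without the NOD peptide array numbered 3 all 9 were lower, with a median of -0.34, and without the 6 arrays that stand apart 8 were lower, with -0.06.

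In wild-type cells, where each strain had 2 arrays, 6 of 9 genes were higher in NOD (median 0.03, against -0.03 over all probe sets). limma called 0 of 12, against 0.0886% of all probe sets, with 0 at an unadjusted p under 0.05, against 2.09%. Of the member probe sets, the dimmer of Hk2 had all NOD arrays above (6.55% of all probe sets) and the brighter all below (14.3%), by 0.13 and -0.06. The largest values were those of Aldoa, 0.19 ± 0.30, and Tpi1, 0.18 ± 0.55. Leaving out a single array took Aldoa to between 0.03 and 0.36 and Tpi1 to between -0.33 and 0.70. The median was -0.09 without the B6g7 array numbered 1 and -0.05 without the NOD array numbered 2.

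The transgene comparison set BDC2.5 cells without peptide against wild-type cells of the same strain. In B6g7, limma called 0 of 12 against 0.0805% of all probe sets, and in NOD 0 of 12 against 0.0564%, with 0 at an unadjusted p under 0.05 in both, against 1.49% and 1.996%. In each strain 7 of 9 genes were lower in BDC2.5 cells, with a median of -0.12 in B6g7 and -0.26 in NOD, where all probe sets had -0.02 and 0.04. Pgam1 gave -0.48 ± 0.38, Tpi1 -0.49 ± 0.50 and Pgk1 -0.47 ± 0.45 in NOD. Without the wild-type NOD array numbered 2 Pgk1 gave 0.08, without that numbered 1 Tpi1 gave 0.02, and without the BDC2.5 array numbered 1 Pgam1 gave -0.16. In B6g7 Pgk1 gave -0.31 ± 0.45, Tpi1 -0.33 ± 0.50 and Hk1 0.33 ± 0.33. Without the wild-type array numbered 2 Pgk1 gave 0.02 and Hk1 -0.26, and without that numbered 1 Tpi1 gave 0.18. The arrays that stand apart made up 1 of 2 wild-type arrays and 1 of 3 BDC2.5 arrays in each strain. Without them Hk1 gave -0.12 in B6g7, where all 9 genes were then lower (median -0.11), and Ldha 0.24 in NOD. Pgk1 then gave -0.28 in B6g7 and -0.18 in NOD, and Tpi1 -0.60 and -0.67. All arrays without the transgene lay above for Pfkl in NOD (-0.18 ± 0.17), as in 2.52% of all probe sets, and all below for the dimmer Hk2 probe set in B6g7 (4.15%). In the opposite directions there were 0 of 12 in each strain, against 6.19% in NOD and 6.91% in B6g7. Without the NOD wild-type array numbered 1 the NOD median was -0.11, and without the B6g7 wild-type array numbered 2 that of B6g7 was -0.05.

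**Figure D3:**
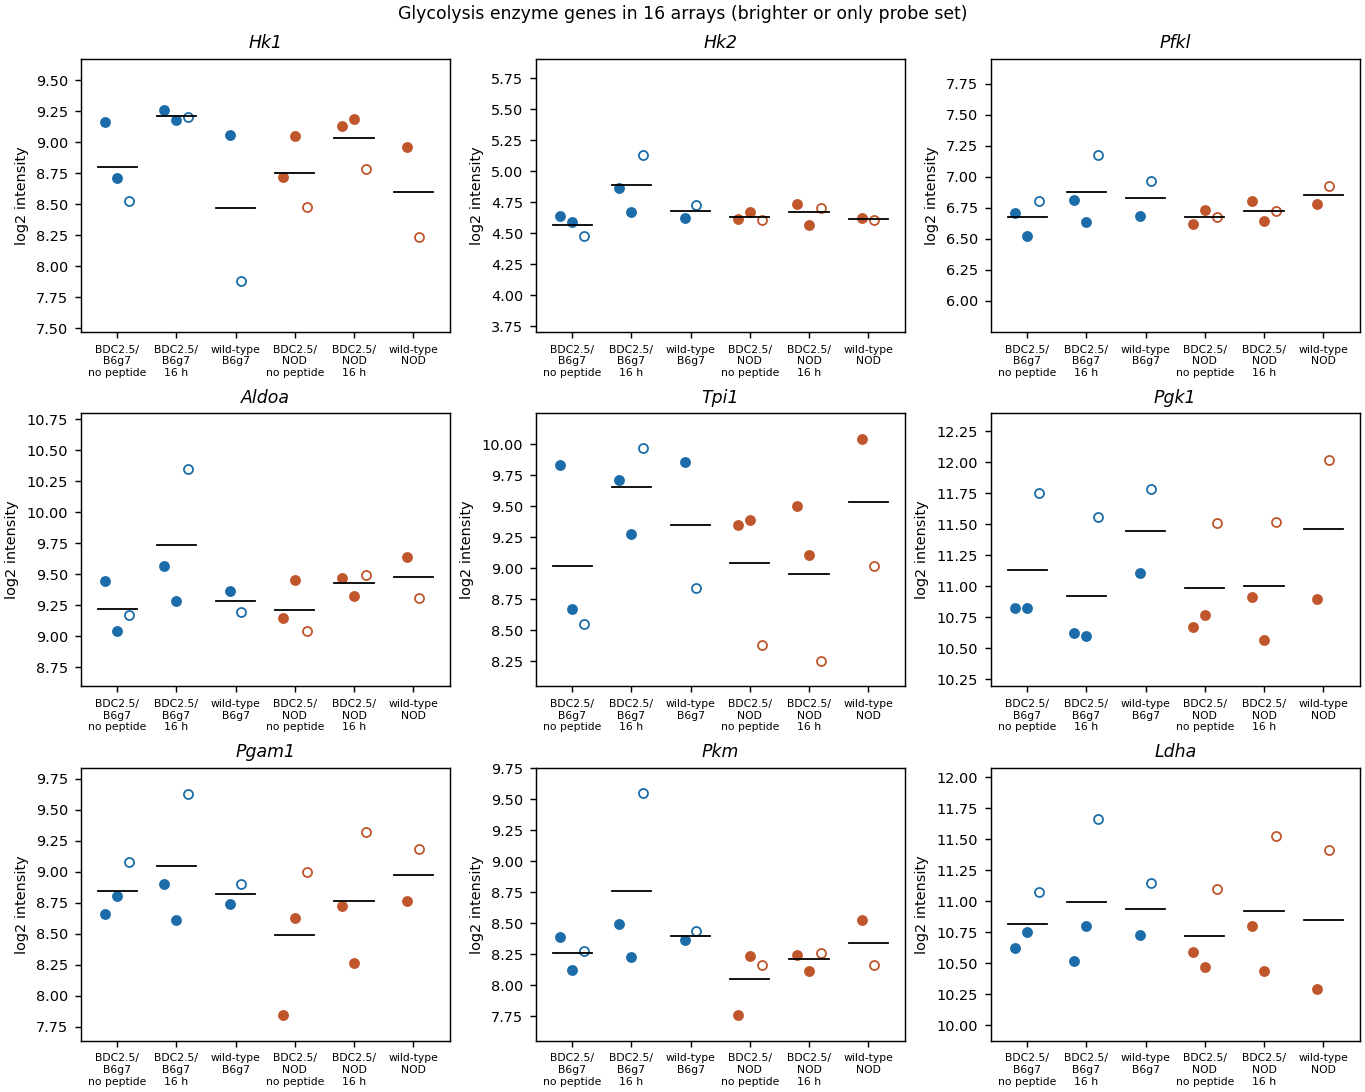
Log2 intensity (y axis, each panel spanning 2.2 log2 units) of 9 glycolysis genes in the 6 groups (x axis), with 1 point per array, blue for B6g7 and orange for NOD, and a line at the group mean. Open circles are the 6 arrays that stand apart, and they are the highest of every group for Pgk1, Ldha and Pgam1.

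Over all 6 groups, BDC2.5/B6g7 at 16 h had the highest mean in 8 of the 9 genes, the exception being Pgk1. Without its array numbered 3 it was highest in 2 of 9, Hk1 and Hk2, and it was then the lowest group for Ldha as well as Pgk1. The other groups kept their arrays that stand apart in that order, and these are their highest for both genes. With all 6 left out, Ldha at 16 h was lower in NOD than in B6g7 (-0.04 ± 0.21), so BDC2.5/B6g7 at 16 h was not the lowest group for Ldha. The spread among group means, from the lowest to the highest, was 0.20 for Pfkl, 0.27 for Ldha, 0.32 for Hk2, 0.52 for Aldoa, 0.53 for Pgk1, 0.56 for Pgam1, 0.70 for Tpi1 and Pkm and 0.74 for Hk1 on the log2 scale. The SD among arrays of a group, pooled, was 0.16, 0.49, 0.12, 0.29, 0.54, 0.45, 0.61, 0.35 and 0.38 in the same order, with Tpi1 before Pkm. For Ldha and Pgk1 the whole spread of group means was thus no larger than 1 SD between arrays of a group. None of the 9 genes was called between any groups compared, so the tests did not separate any neighbouring groups in the order of its levels.

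Of 74 other genes of glucose metabolism listed by symbol, 53 were measured. None was called in either peptide response, where limma called 0.00805% of all probe sets in B6g7 and 0% in NOD. With peptide, 20 of 53 were higher in B6g7 (median -0.03) and 22 of 53 in NOD (median -0.04). By part of the pathway, 6 of 12 other glycolytic enzymes, 3 of 8 glucose and lactate carriers, 4 of 11 regulators, 4 of 13 genes of pyruvate entry and 3 of 9 of the pentose phosphate path were higher in B6g7. In NOD the counts were 6, 2, 4, 7 and 3.

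The largest difference with peptide among these 53 was that of Eno3, the muscle-type enolase, which makes the substrate of pyruvate kinase. It read 103, 81.2 and 79.2 without peptide and 159, 121 and 445 at 16 h in B6g7 (1.23 ± 0.38, limma adjusted p = 1). In NOD it read 112, 119 and 77.9 and then 123, 120 and 183 (0.46 ± 0.38, adjusted p = 1). All arrays at 16 h lay above those without peptide in both strains, as in 3.48% of all probe sets in B6g7 and 2.33% in NOD. In NOD the gap was narrow, with 120.07 as the lowest at 16 h and 119.36 as the highest without peptide. The B6g7 peptide array numbered 3 was again the highest of its group. Without it Eno3 gave 0.67 in B6g7, and without the NOD peptide array numbered 3 it gave 0.26 in NOD. That 0.26 still includes the NOD no-peptide array numbered 3, the lowest of its group at 77.9. The NOD arrays numbered 1 and 2 read 112 and 119 without peptide and 123 and 120 at 16 h. Myc, a transcription factor induced by growth signals, read 13.9, 14.6 and 17.2 without peptide and 27.7, 16.1 and 41.0 at 16 h in B6g7 (0.80 ± 0.27). In NOD it read 13.9, 13.7 and 14.7 and then 14.7, 15.95 and 26.2 (0.38 ± 0.27). All lie below the array medians, and without the peptide array numbered 3 of its strain Myc gave 0.48 in B6g7 and 0.12 in NOD. Pgls, of the pentose phosphate path, gave 0.75 ± 0.66 in B6g7 and Egln1, an oxygen sensor that marks Hif1a for decay, -0.42 ± 0.42 in NOD, these and Myc at limma adjusted p = 1. Pgls gave 0.41 without the B6g7 no-peptide array numbered 3, and Egln1 -0.02 without that of NOD.

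Between strains, 1 of the 53 was called, Pdk1, the kinase that holds back pyruvate dehydrogenase and so the flow of pyruvate into mitochondria. Without peptide it read 253, 334 and 326 in BDC2.5/B6g7 and 85.6, 107 and 112 in BDC2.5/NOD, and fell by 1.58 ± 0.19 on the log2 scale from B6g7 to NOD (limma adjusted p = 0.00181). It was also lower in NOD at 16 h (-1.21 ± 0.19, adjusted p = 0.0118) and in wild-type cells (-2.08 ± 0.23, adjusted p = 0.00188). The difference at 16 h had adjusted p = 0.0861 without the 6 arrays that stand apart, and 0.0525, 0.0536 and 0.0650 without the B6g7 array numbered 2 or the NOD arrays numbered 1 or 3, at -1.07 to -1.26. That in wild-type cells had adjusted p = 0.0674 without the B6g7 array numbered 1 (-1.91). Ldhb, the heart-type partner of Ldha in lactate dehydrogenase, read 538, 466 and 448 in BDC2.5/B6g7 and 741, 1041 and 800 in BDC2.5/NOD without peptide (0.82 ± 0.25, adjusted p = 0.605). Its NOD arrays also lay above those of B6g7 at 16 h (1.02 ± 0.25, adjusted p = 0.170) and in wild-type cells (0.86 ± 0.31, adjusted p = 1), without passing. Prps2, which makes the ribose phosphate donor of nucleotide synthesis, gave -0.81 ± 0.28 without peptide (adjusted p = 0.812).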

How the data were processed

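The authors deposited a single linear intensity for each probe set on each array. The sources used here do not give how it was background-corrected, summarised or scaled, and the array medians lie close together. The values were taken to log2, and 66 control probe sets of 12488 were left out. Of the 12422 tested, 10833 named 1 gene in the platform annotation, 396 several and 1193 none.

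limma 3.58.1 in R 4.3.3 was fitted on all 16 arrays with 1 mean per group and an intensity trend (10 residual and 3.60 prior degrees of freedom). Benjamini-Hochberg adjustment ran over all probe sets in each of 9 comparisons, two-sided, with a call at adjusted p under 0.05. The ± gives the fit's standard error. The script was tested on simulated data. The number of arrays limits the precision.

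The members, lists, markers, motifs and alternatives were chosen with earlier results of these data known. Named were all members, of the other pathway genes any called and the 3 largest differences per peptide response and without peptide between strains, and the 5 genes most like the members.

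Same-numbered arrays deviated together from their group means between peptide states (r across probe sets 0.64, 0.25 and 0.60 in B6g7, and 0.61, 0.58 and 0.79 in NOD) and between strains (0.16 to 0.84 in BDC2.5), so the titles' numbers were taken to pair BDC2.5 arrays, on the data and not the labels. Between arrays numbered 1 and 2, differently numbered pairs gave -0.06 and 0.04 in B6g7 and 0.15 and 0.39 in NOD between peptide states. Between strains they gave -0.18 and 0.37 without peptide and 0.20 and 0.25 at 16 h. The arrays numbered 2 gave 0.16 and 0.23 with each other. A pairing of the arrays numbered 2 between strains was thus not shown, and pair counts between strains go by the number only.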

Additional observations from a re-analysis of the deposited data

How the results depend on the processing

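The count of called member probe sets was 0 in each of the 9 comparisons, and it was 0 in all 202 recomputations: with the replicate block, with a replicate block within each strain (peptide comparisons), without the 6 arrays that stand apart, with quantile normalization, log2(value + 16), a filter on dim probe sets or no intensity trend, and without each array in turn. The smallest adjusted p in any of them was 0.191, for Hk2 in the B6g7 peptide response without the peptide array numbered 2. With the replicate block the smallest were 0.349 (the dimmer Hk2 probe set, strains at 16 h) and 0.357 (Pgam1, transgene in NOD), no member was called, and the median of the transgene difference in B6g7 was -0.20. This block joins wild-type arrays numbered 2 to BDC2.5 arrays numbered 2. They deviated instead with BDC2.5 arrays numbered 3 (r = 0.83 in NOD and 0.69 in B6g7, against -0.50 and 0.06 for those numbered 2). The blocked transgene values thus rest on a pairing that the data do not bear out. Over all probe sets the replicate block gave 3 calls for the peptide response in B6g7 against 1, 7 against 3 for the mean response, 69 against 33 for the strains without peptide, 129 against 61 at 16 h and 32 against 11 in wild-type. The block within each strain gave 0 in each peptide comparison. Without the 6 arrays that stand apart 3 probe sets were called for the B6g7 response, 36 for the strains at 16 h and 0 for the transgene in NOD, against 7. log2(value + 16) and quantile normalization gave 2 for the B6g7 response, and the fit without the trend 0. Leaving out single arrays moved the median of the 9 genes from 0.10 to 0.43 in the B6g7 peptide response and from 0.03 to 0.21 in that of NOD. Pdk1 was called lower in NOD in 23 of 23 settings without peptide, 19 of 23 at 16 h and 22 of 23 in wild-type. Of 1818 recomputed differences of single genes, 95 took the other sign, none of them called in either setting. Leaving out an array outside the compared groups, the dim filter and the fit without the trend left the differences as they were. Both replicate blocks also did so outside the transgene comparisons. Such settings could not turn a sign, so 95 of 1818 does not measure how stable the signs are. Leaving out a wild-type array left 1, which is assumed to vary like the other groups. The dim level of Hk2, below the array medians, limits what its values show.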

Other observations

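The genes most like the glycolysis genes across the 16 arrays, by Pearson correlation of group-centred log2 values with the mean of the 9 members, were Mdn1 (r = 0.91), a ribosome assembly factor, Xpnpep1 (0.89), an aminopeptidase, Manf (0.89), an endoplasmic reticulum stress protein, Commd7 (0.88) and Gars (0.88), the glycyl-tRNA synthetase. They are the 5 highest of 4824 genes, so the values are given as a description with no p. Over the 8 BDC2.5 arrays that do not stand apart the same correlations were 0.99, 0.53, 0.71, 0.90 and 0.80. Each group then held 2 arrays, whose centred values are equal and opposite, so each r rests on fewer independent values than arrays. The member mean joins genes that opposed each other over the 16 arrays, such as Pgk1 and Hk1 (r = -0.72). It also joins genes that went together, such as Pgk1 and Ldha (0.94). The mean of the 9 members departed most from its group in the BDC2.5/B6g7 peptide arrays numbered 3 and 2. It lay there at 0.46 and -0.31 on the log2 scale around a group mean that includes the array numbered 3. The peptide array numbered 1 lay at -0.15, and the other 13 arrays between -0.17 and 0.11.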
